A study of Rattus norvegicus with 2 samples.

Results

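The 186 genes described here encode ion channels, proteins of calcium handling and connexins. They were taken by symbol from the 37203 genes of the count table, as the potassium (Kcn), sodium (Scn), calcium (Cacn), pacemaker (Hcn) and TRP (Trpc, Trpm, Trpv) channel families, the ryanodine receptors (Ryr), the connexins (Gja to Gjd) and Atp2a2, Pln, Casq1, Casq2, Slc8a1, Itpr1, Itpr2 and Itpr3. Of the 186 genes, 102 had at least 20 counts in the HO and WT libraries together and are compared between the genotypes, 57 had 1 to 19 counts and 27 had none. The RNA came from cardiac outflow tracts (OFTs) of Sprague-Dawley rat embryos at E13.5. The HO library held the pooled OFTs of 10 Snx17-/- embryos, which come from crosses of heterozygotes and carry a CRISPR/Cas9 deletion and frameshift in the PX domain of sorting nexin 17, a knockout not limited to one tissue, and the WT library held those of 10 wild-type embryos. With 1 library per genotype there were no replicates, so no p-value is given. Every interval reflects the number of reads alone and leaves out how far embryos or repeat libraries would vary.

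Ion channels set the membrane potential and the action potential of heart muscle, and the wall of the embryonic OFT is still muscular. Calcium enters a cardiomyocyte through voltage-gated calcium channels, opens ryanodine receptors on the sarcoplasmic reticulum and is then pumped back into this store or expelled by the sodium-calcium exchanger. Connexins form the gap junctions through which the action potential passes from cell to cell, and the OFT of early embryos is known for slow conduction. The RNA is of whole tissue, so fewer cells of a type and less RNA per cell cannot be told apart.

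Snx17 itself had 994 counts in the HO library and 1365 in the WT library, a log2 fold of −0.47 (interval −0.59 to −0.35). This value covers the whole gene and not the deleted part alone. All 15 listed markers of cardiomyocytes, 8 of smooth muscle and 12 of endothelium and endocardium had at least 20 counts, so RNA of these cell types was present. These lists mark cell types and were not made to tell the OFT from other parts of the heart. The counted reads summed to 9528615 in HO and 9321811 in WT, and the 186 genes held 0.491% of them in HO (exact Clopper-Pearson 95% interval 0.487% to 0.496%) and 0.480% in WT (0.475% to 0.484%). The 5 members with the most reads in each library made up 57.1% of this share in HO and 53.7% in WT. Folds are HO over WT after TMM scaling of the libraries (trimmed mean of M-values, edgeR), each with an exact 95% interval from the HO share of its reads. A gene is called lower in HO where its whole interval lay below 1/1.5, and higher where it lay above 1.5, the fold threshold of the study's methods. Where the interval only lay wholly above or below 1, the gene is said to differ beyond counting error.

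Of the 102 genes, 2 were lower in the HO library by this rule, Trpm5 and Kcna3, and none was higher. These 2 calls are 1.96% of the genes, beside 1.95% of all 15426 genes with at least 20 counts, of which 0.771% were higher and 1.18% lower. Beyond counting error, 15 genes (14.7%) lay above 1 and 27 (26.5%) below 1, beside 20.3% and 17.0% of all genes tested. The median log2 fold of the 102 genes was −0.05, and that of all genes tested was 0.01. The members were shallower than most genes, with a median of 173.5 counts over both libraries against 446 for all genes tested. The interval lay wholly within 2-fold in both directions for 57 of the 102 genes (55.9%), beside 77.3% of all genes tested. For the other 45 genes these libraries therefore left room for a 2-fold difference or a larger one. The 38 genes with 20 to 99 counts had a median log2 fold of −0.30 and the 64 genes with 100 counts or more had −0.03. All genes with 20 to 200 counts had a median of −0.05.

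**Figure D1:**
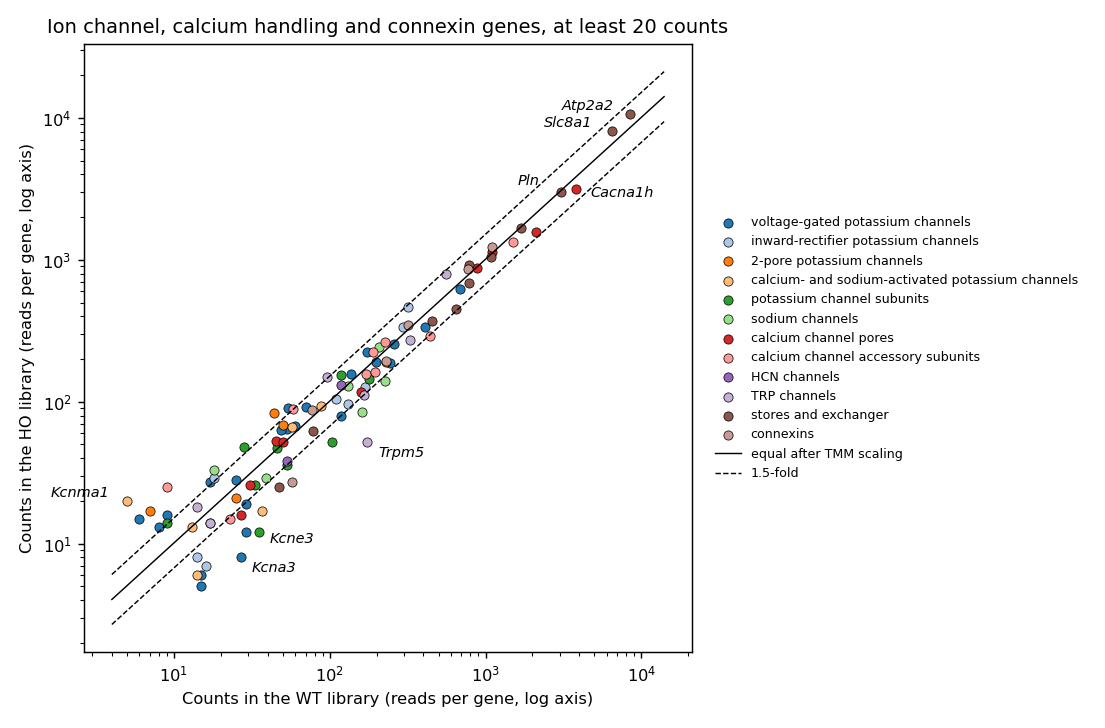
Counts in the HO library (vertical, log axis) against counts in the WT library (horizontal, log axis) for the 102 genes with at least 20 counts, 1 point per gene, coloured by class. The solid line marks equal levels after TMM scaling and the dashed lines mark 1.5-fold. Trpm5, with 52 counts in HO and 174 in WT, lies farthest below the lower dashed line among genes with over 100 counts, and Atp2a2 and Slc8a1 lie between the lines at the top right.

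TRP channels are cation channels that open to ligands, store depletion, stretch or temperature, and 8 of the 21 genes had at least 20 counts. Trpm5, a calcium-activated cation channel best known from taste cells, had 52 counts in HO and 174 in WT, a log2 fold of −1.76 (interval −2.23 to −1.30). Its level was 0.80 RPKM in HO and 2.73 RPKM in WT, where RPKM is the deposited read count scaled by gene length and library size, used here to compare levels between genes. Trpm4, its closest relative and a channel of cardiomyocytes, had 271 counts in HO and 330 in WT (log2 fold −0.30, interval −0.54 to −0.06). On the other side, Trpm7, a channel fused to a protein kinase, had 800 counts in HO and 558 in WT (log2 fold 0.50, interval 0.35 to 0.66). Trpm7 also had the highest TRP level in both libraries, at 11.9 RPKM in HO and 8.46 RPKM in WT. Trpc1, a subunit of channels activated by receptors and stores, had 150 counts in HO and 96 in WT (log2 fold 0.63, interval 0.25 to 1.01). A second gene model described as Trpc1-like, LOC100909709, differed the opposite way with 7 and 21 counts, and the sum of both had a log2 fold of 0.41 (interval 0.05 to 0.77). The intervals of Trpc5, Trpc6 and Trpv2, with 31 or 32 counts each over both libraries, included 1. The median log2 fold of the 8 genes was −0.30.

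Kcna3, a voltage-gated potassium channel known from lymphocytes, had 8 counts in HO and 27 in WT, a log2 fold of −1.77 (interval −3.12 to −0.59). Its interval lay just past the threshold of 1/1.5. Kcna3 did not pass the rule under DESeq2 size factors (−1.75, interval −3.10 to −0.58) or with folds centred by abundance (−1.64, interval −2.98 to −0.46), whereas Trpm5 was called lower under all alternatives run. Macrophage and erythroid markers measured beside Kcna3 lay on both sides of 0, and no list of lymphocyte markers was made. The 4 macrophage markers with at least 20 counts, of 6 listed, had log2 folds above 0, and among them only the interval of Csf1r, with 130 counts in HO and 47 in WT, excluded 1. Of 10 erythroid markers with at least 20 counts 8 lay above 0, while Hbb had 43 and 88 counts and Slc4a1 had 567 and 645. Their part in the value of Kcna3 was not tested. Kcne3, a small subunit that modifies potassium channels, lay just outside the rule with 12 counts in HO and 35 in WT (log2 fold −1.56, interval −2.64 to −0.58). It was called lower when upper-quartile factors or total counts replaced TMM, or when the TMM folds were also centred by gene length.

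Windows at the annotated starts of the 2 called genes are shown beside those of the 2 members with the most reads, Atp2a2 and Slc8a1, whose folds were close to each other. Each runs from 250 bases before the annotated start to 50 bases after it, 5′ to 3′ on the strand of the gene, from RefSeq on build GRCr8, which is not the build of the counts (Rnor 6.0). Trpm5 lies at chr1:207707039-207707338 on the minus strand, and Kcna3 at chr2:197320074-197320373, Atp2a2 at chr12:39733269-39733568 and Slc8a1 at chr6:19023309-19023608 on the plus strand. Capitals mark matches on either strand to 4 motifs of factors or elements of heart and muscle genes, namely GATAA for GATA factors, TATAAA for the TATA box, TNAAGTG for NKX2-5 and, for MEF2, CTA and TAG with 4 bases of any kind between them.
Trpm5: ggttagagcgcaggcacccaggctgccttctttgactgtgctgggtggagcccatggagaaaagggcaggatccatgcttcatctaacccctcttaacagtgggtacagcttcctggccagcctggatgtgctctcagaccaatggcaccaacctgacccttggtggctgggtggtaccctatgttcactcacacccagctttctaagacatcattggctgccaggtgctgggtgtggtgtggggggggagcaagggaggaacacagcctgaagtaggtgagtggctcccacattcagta
Kcna3: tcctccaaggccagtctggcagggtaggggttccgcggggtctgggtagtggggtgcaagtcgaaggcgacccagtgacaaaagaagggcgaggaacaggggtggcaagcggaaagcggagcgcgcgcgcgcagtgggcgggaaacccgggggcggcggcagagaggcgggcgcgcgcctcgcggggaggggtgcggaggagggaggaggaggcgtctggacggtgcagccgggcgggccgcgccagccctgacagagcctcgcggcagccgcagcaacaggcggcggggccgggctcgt
Atp2a2: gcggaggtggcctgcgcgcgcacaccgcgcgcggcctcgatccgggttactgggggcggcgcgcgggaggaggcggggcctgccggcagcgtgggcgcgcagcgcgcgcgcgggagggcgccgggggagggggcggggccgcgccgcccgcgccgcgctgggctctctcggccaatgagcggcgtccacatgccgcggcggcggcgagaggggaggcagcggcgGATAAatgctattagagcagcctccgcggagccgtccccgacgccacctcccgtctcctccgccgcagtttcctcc
Slc8a1: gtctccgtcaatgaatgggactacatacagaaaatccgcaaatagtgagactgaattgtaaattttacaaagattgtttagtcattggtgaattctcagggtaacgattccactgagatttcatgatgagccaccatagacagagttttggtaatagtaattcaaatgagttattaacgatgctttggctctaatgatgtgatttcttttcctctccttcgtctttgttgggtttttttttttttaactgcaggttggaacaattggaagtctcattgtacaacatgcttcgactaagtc
Only the Atp2a2 window held a match among these 4, a GATAA that begins 26 bases before the start. The GC content of the windows was 79% for Atp2a2, 74% for Kcna3, 57% for Trpm5 and 36.3% for Slc8a1. At its annotated start the Slc8a1 window has a run of t followed by aactgcag, as at the end of an intron. It may therefore hold no promoter, and its GC content and lack of a match describe this window only. Such windows were found for 74 of the 102 genes (80 windows), with a median GC content of 63.8%, beside 51.7% of all 33469 windows. GATAA was found in 17.5% of the 80 windows and 26.5% of all windows, TATAAA in 2.5% and 14.2%, TNAAGTG in 5% and 11.5%, and the MEF2 motif in 0% and 3.84%. The first letters of TNAAGTG can coincide with the end of GATAA or TATAAA, and the open bases of the MEF2 motif can hold part of the others. A match in a window is a description of its letters and not evidence of a bound site.

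**Figure D2:**
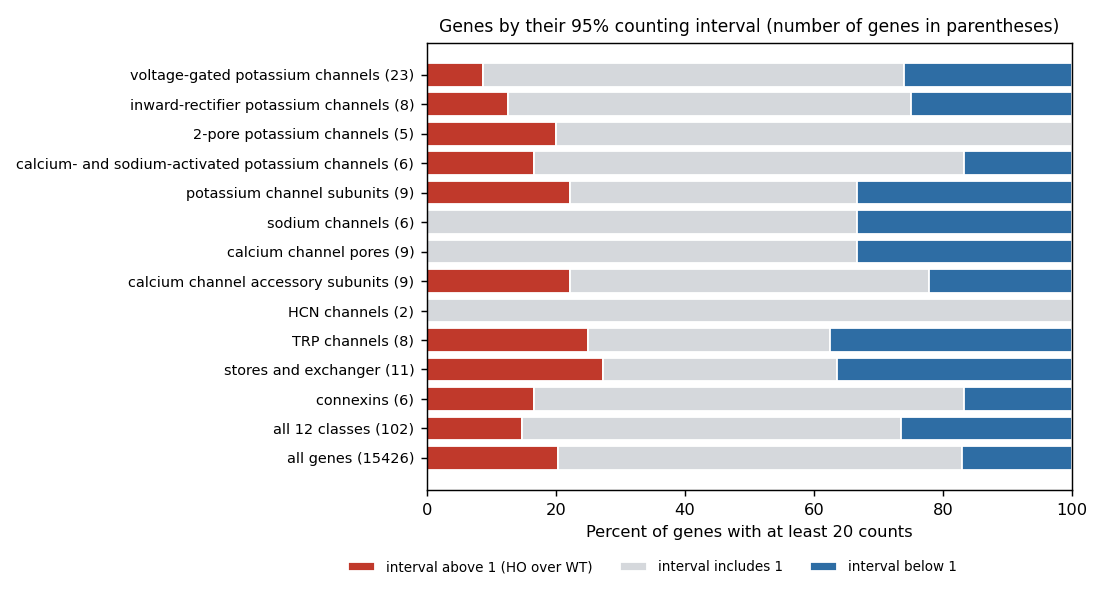
Percent of genes with at least 20 counts (horizontal axis) whose 95% counting interval of the fold of HO over WT lay above 1, included 1 or lay below 1, for each of 12 classes of channel, calcium and connexin genes, for the classes together and for all genes, with the number of genes in parentheses. For the 12 classes together, 14.7% lay above 1 and 26.5% below 1, and for all genes 20.3% and 17.0%.

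All 11 genes of the calcium stores and the sodium-calcium exchanger had at least 20 counts, and among them Atp2a2 and Pln had the highest levels of all members. Atp2a2, the calcium pump of the sarcoplasmic reticulum in heart muscle, had 10754 counts in HO and 8514 in WT (log2 fold 0.32, interval 0.28 to 0.36), with levels of 198 RPKM and 160 RPKM. Slc8a1, the sodium-calcium exchanger of the embryonic heart, had 8144 counts in HO and 6491 in WT (log2 fold 0.31, interval 0.26 to 0.36). With folds centred by gene length, Slc8a1 had a log2 fold of 0.49 (interval 0.44 to 0.54). Both genes differed beyond counting error but stayed within 1.5-fold. Pln, phospholamban, which inhibits this pump, had 3020 counts in HO and 3071 in WT (log2 fold −0.04, interval −0.11 to 0.03). The interval of Pln lay below 1 with upper-quartile factors (−0.08, interval −0.16 to −0.01) and with folds centred by gene length (−0.08, interval −0.15 to −0.00). Ryr2, the release channel of the cardiac store, had 1688 and 1699 counts (log2 fold −0.02, with an interval from −0.12 to 0.07), and 0.15 (interval 0.05 to 0.24) with folds centred by gene length. Thus the pump and the exchanger had more reads in the HO library while the intervals of Pln and Ryr2 included 1 with TMM scaling. The cardiomyocyte markers measured beside them, 15 genes that include Tnnt2, Actc1 and Myh7 and no member, had log2 folds above 0 in 14 of 15 genes, with a median of 0.20. Their counts summed to 270061 in HO and 232473 in WT, and their part in these differences was not tested.

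Calsequestrins bind calcium inside the store, and the 2 genes lay on opposite sides of 1. Casq2, the cardiac form, had 692 counts in HO and 778 in WT (log2 fold −0.18, interval −0.33 to −0.03). Casq1, the form of fast skeletal muscle, had 918 and 784 counts (log2 fold 0.21, with an interval from 0.07 to 0.35), and its level of 52.1 RPKM in HO and 45.5 RPKM in WT was above that of Casq2, at 29.6 RPKM and 34.0 RPKM. No listed marker of skeletal muscle precursors, such as Myod1 or Myog, reached 20 counts in both libraries together. Itpr1, Itpr2 and Itpr3 encode the IP3 receptors, which release calcium in response to hormones and growth factors. Itpr1 had 1049 counts in HO and 1085 in WT (log2 fold −0.06, interval −0.19 to 0.06, and 0.04 with folds centred by gene length). Itpr2 had 452 counts in HO and 643 in WT (log2 fold −0.52, interval −0.70 to −0.35). Itpr3 had 373 and 456 (log2 fold −0.31, interval −0.51 to −0.10), so that these 2 genes differed beyond counting error and Itpr1 did not. Of the level of the 3 IP3 receptor genes together, in RPKM, Itpr1 made up 54.9% in HO and 48.8% in WT. Ryr1, the ryanodine receptor of skeletal muscle, was low, with 25 counts in HO and 47 in WT (log2 fold −0.93, interval −1.69 to −0.20), and Ryr3 had 62 and 78 counts with an interval that included 1. The median log2 fold of the 11 genes was −0.06.

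**Figure D3:**
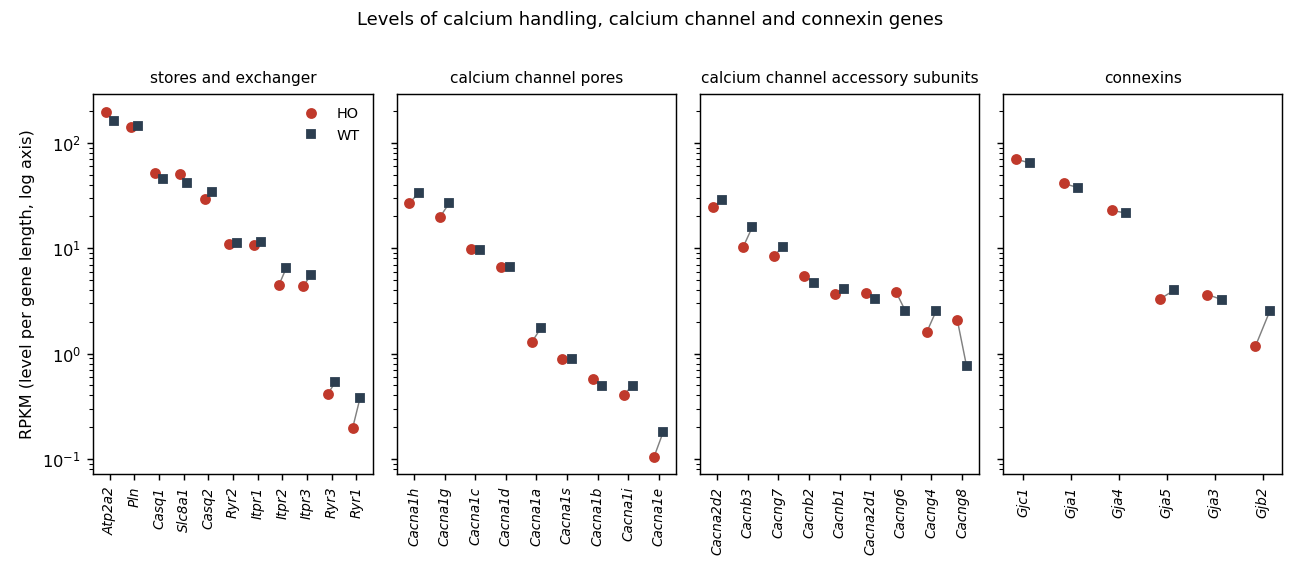
Level per gene length (RPKM, log axis) of the genes with at least 20 counts in 4 classes, calcium stores and exchanger, calcium channel pores, calcium channel accessory subunits and connexins, with HO as circles and WT as squares. Atp2a2 had the highest level, at 198 RPKM in HO and 160 RPKM in WT, and Gjc1 was the highest connexin in both libraries.

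Among the pores of voltage-gated calcium channels, the T-type genes Cacna1h and Cacna1g differed beyond counting error, while the intervals of the L-type genes Cacna1c and Cacna1d included 1. T-type channels open at low voltage and serve pacemaking in the embryonic heart, whereas L-type channels carry the main calcium current of contraction. Cacna1h, a T-type pore, had 3134 counts in HO and 3824 in WT (log2 fold −0.30, interval −0.37 to −0.23), and Cacna1g, the other T-type pore of the heart, had 1578 and 2094 (log2 fold −0.42, interval −0.52 to −0.33). With folds centred by gene length, Cacna1h had a log2 fold of −0.17 (interval −0.24 to −0.10). Cacna1c, the main L-type pore of the ventricle, had 1128 counts in HO and 1097 in WT (log2 fold 0.03, interval −0.10 to 0.15), and Cacna1d, an L-type pore of pacemaker and atrial cells, had 883 and 881 (log2 fold −0.01, interval −0.15 to 0.12). These values were 0.16 (interval 0.03 to 0.28) and 0.14 (interval 0.00 to 0.28) with folds centred by gene length. The sign of Cacna1c also differed with upper-quartile factors (−0.02) and that of Cacna1d with DESeq2 size factors (0.00). Per length, Cacna1h and Cacna1g were the highest pores, at 26.8 RPKM and 19.7 RPKM in HO and 33.4 RPKM and 26.7 RPKM in WT, and Cacna1c followed at 9.75 RPKM in HO and 9.69 RPKM in WT. Cacna1a, a pore of nerve terminals, had 118 counts in HO and 158 in WT (log2 fold −0.44, interval −0.79 to −0.08). The intervals of Cacna1b, Cacna1e, Cacna1i and Cacna1s included 1, and these 4 genes had levels below 1 RPKM in both libraries. With TMM scaling, none of the 9 pores with at least 20 counts had an interval wholly above 1 and 3 had one wholly below 1. Of all genes tested, 20.3% lay above 1 and 17.0% below 1. Of the 9 pores, 3 had log2 folds above 0, and the median log2 fold was −0.27.

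Of 16 accessory subunits of calcium channels, which set the traffic and gating of the pores, 9 had at least 20 counts. Cacnb3, a beta subunit, had 293 counts in HO and 443 in WT (log2 fold −0.61, interval −0.83 to −0.40), while Cacnb2, the main beta subunit of the heart, had 223 and 190 (log2 fold 0.22, interval −0.07 to 0.50). On GRCr8 the gene Tuba1c overlaps Cacnb3, and Tuba1c had 1986 counts in HO and 1825 in WT (log2 fold 0.11, interval 0.01 to 0.20). Whether the 2 genes share reads was not tested. Cacna2d2, the alpha-2-delta subunit with the highest level, had 1330 counts in HO and 1505 in WT (log2 fold −0.19, interval −0.30 to −0.09). Its relative Cacna2d1 had 264 and 227 counts (log2 fold 0.20, interval −0.06 to 0.47). Cacng6, a gamma subunit of muscle, lay above 1 with 89 and 58 counts (log2 fold 0.60, interval 0.11 to 1.11). Cacng8, which in the brain serves glutamate receptors, had 25 counts in HO and 9 in WT (log2 fold 1.46, interval 0.31 to 2.74). A gene model described as Cacng8-like, LOC102554880, had 9 and 20 counts, and the sum of both had a log2 fold of 0.21 (interval −0.54 to 0.98), so the difference of Cacng8 alone was not seen in the sum. Cacng4, Cacng7 and Cacnb1 had intervals that included 1.

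Sodium channels carry the upstroke of the action potential, and 6 of 13 genes had at least 20 counts. Scn8a, a pore of neurons also found in heart, had 129 counts in HO and 131 in WT (log2 fold −0.04, interval −0.40 to 0.32). Scn4a, the pore of skeletal muscle, had 33 counts in HO and 18 in WT (log2 fold 0.86, interval −0.01 to 1.77). Beta subunits anchor the pores and modify their gating, and Scn3b and Scn2b differed beyond counting error. Scn3b had 85 counts in HO and 162 in WT (log2 fold −0.95, interval −1.34 to −0.56), and Scn2b had 139 and 226 (log2 fold −0.72, interval −1.03 to −0.41). Scn3b met the rule with upper-quartile factors (−0.99, interval −1.39 to −0.60) or with folds centred by abundance (−0.98, interval −1.38 to −0.59). Scn4b had 29 and 39 counts with an interval that included 1 (log2 fold −0.44, interval −1.19 to 0.29). Markers of neurons measured beside them had a median log2 fold of −0.32 over 14 of 18 genes listed, of which 6 lay above 0, and their counts summed to 5610 in HO and 6974 in WT, of which Ncam1 alone had 2884 and 4197. Their part in the values of the beta subunits was not tested.

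HCN channels carry the pacemaker current. Hcn4, the main form of pacemaker cells, had 131 counts in HO and 118 in WT (log2 fold 0.14, interval −0.23 to 0.51), and Hcn2 had 38 and 53 (log2 fold −0.50, interval −1.14 to 0.13). Hcn3 had 7 and 8 counts. No difference in Hcn4 or Hcn2 was detectable at this depth.

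**Figure D4:**
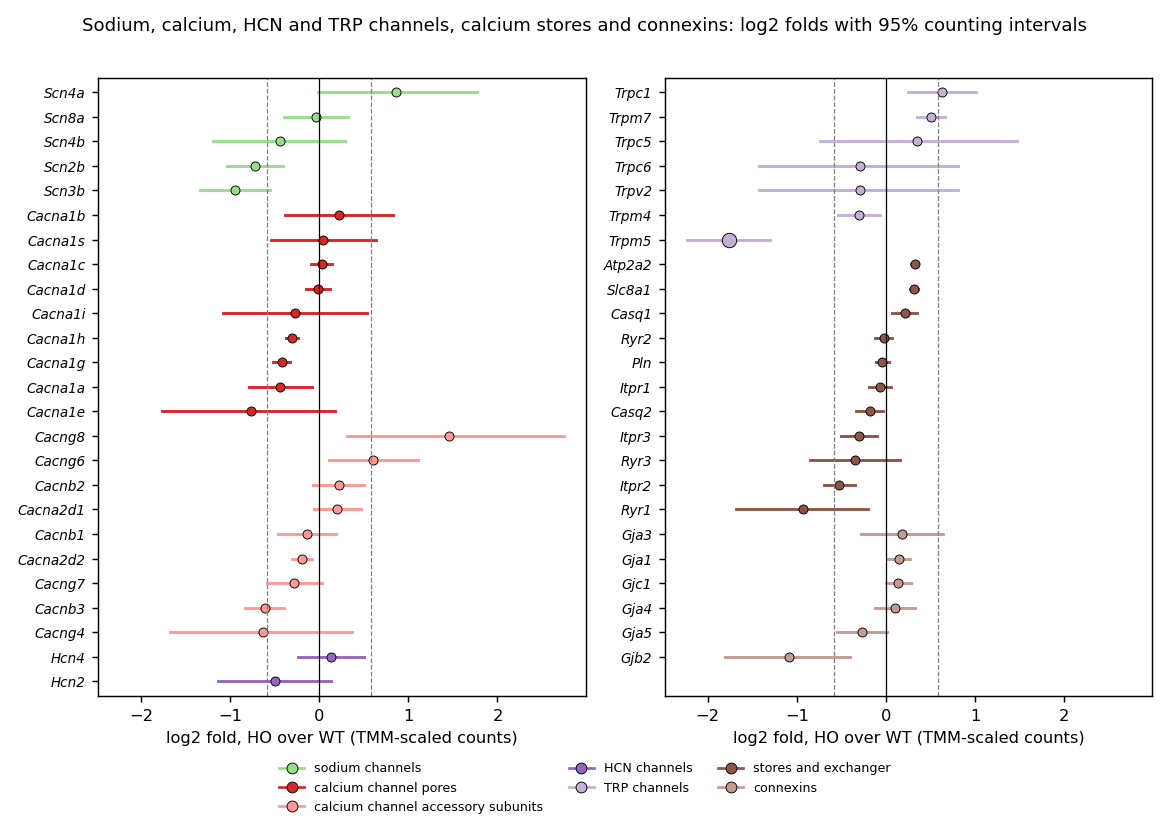
Log2 fold of HO over WT (points) with exact 95% counting intervals (lines) for 49 genes with at least 20 counts among sodium channels, calcium channel pores and accessory subunits, HCN channels, TRP channels, calcium stores with the exchanger, and connexins. The solid vertical line marks equal levels, dashed lines mark 1.5-fold, and the large point marks the gene that met the rule, Trpm5 at −1.76. Atp2a2 and Slc8a1 have the narrowest intervals, from 0.28 to 0.36 and from 0.26 to 0.36.

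Of the 6 connexins with at least 20 counts, Gjc1, Gja1 and Gja4 had the highest levels and log2 folds between 0.11 and 0.15. Gjc1, the connexin of slow conduction in nodal and embryonic tissue, had 861 counts in HO and 773 in WT (log2 fold 0.14, interval −0.00 to 0.28), and Gja1, the main connexin of working myocardium and also of mesenchyme, had 1229 and 1099 (log2 fold 0.15, interval 0.03 to 0.26). Per length, Gjc1 was above Gja1, at 70.1 RPKM and 41.1 RPKM in HO and 64.3 RPKM and 37.6 RPKM in WT. Gja4, a connexin of arterial endothelium, had 347 and 319 counts (log2 fold 0.11, with an interval from −0.12 to 0.33), and Gja3, known from the lens, had 88 and 77 (log2 fold 0.18, interval −0.28 to 0.64). Gja5, the fast-conducting connexin of atria, Purkinje fibres and arterial endothelium, had 194 counts in HO and 231 in WT (log2 fold −0.27, interval −0.55 to 0.01), and its level was 3.27 RPKM in HO and 3.98 RPKM in WT. The order Gjc1, Gja1, Gja4 by level held in both libraries, and these 3 genes made up 48.9%, 28.7% and 16.0% of the summed connexin level in HO and 48.0%, 28.0% and 16.0% in WT. Gjb2, a connexin of epithelia, differed beyond counting error, with 27 counts in HO and 57 in WT (log2 fold −1.09, interval −1.81 to −0.41). Of 14 listed epithelial markers 4 had at least 20 counts, and their intervals included 1, with log2 folds of 0.09 for Krt8, 0.23 for Krt18, 0.04 for Krt19 and −0.33 for Cdh1. The markers with 1 to 19 counts lay on both sides. Cldn4 had 8 counts in HO and 11 in WT, and Epcam and Grhl2 each had 0 and 2. Cldn6 had 6 counts in HO and 3 in WT, Sox2 had 2 and 0, and Cldn3 and Foxa1 each had 1 and 0. Their part in the value of Gjb2 was not tested. Of 19 connexin genes, 8 had no count in either library, and 5 had 1 to 19 counts.

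Voltage-gated potassium channels repolarise the membrane after an action potential, and 23 of the 40 genes had at least 20 counts. Kcnh2, the pore of the rapid delayed rectifier, had 620 counts in HO and 683 in WT (log2 fold −0.15, interval −0.31 to 0.00), and Kcnq1, the pore of the slow delayed rectifier, had 255 and 259 (log2 fold −0.04, interval −0.29 to 0.22). Kcna5, the pore of the ultrarapid current of atrial cells, had the highest level of this class, at 19.4 RPKM in HO and 24.2 RPKM in WT, and lay below 1 with 334 and 408 counts (log2 fold −0.30, interval −0.52 to −0.09). Kcna6, a relative known mainly from neurons, also lay below 1 with 189 and 244 counts (log2 fold −0.38, interval −0.67 to −0.10). Of the genes for the transient outward current, Kcnd1 had 80 counts in HO and 118 in WT (log2 fold −0.58, interval −1.0 to −0.15), while Kcnd3 had 63 and 49 (log2 fold 0.35, interval −0.21 to 0.92) and Kcnd2 had 13 and 8. Kcnq5, a relative of Kcnq1, lay above 1 with 226 and 174 counts (log2 fold 0.36, interval 0.07 to 0.66). Some genes of this class encode silent subunits, which form no channel alone but modify others, and these lay on both sides. Kcnv2 had 90 counts in HO and 54 in WT (log2 fold 0.72, interval 0.22 to 1.24). Kcns3 had 12 and 29 counts (log2 fold −1.29, with an interval from −2.39 to −0.27) and Kcnf1 had 5 and 15 (log2 fold −1.60, interval −3.41 to −0.07). Kcnv1, with 192 and 198 counts, and Kcng2, with 156 and 138, had intervals that included 1. Kcna4, Kcna7, Kcnb2, Kcnh1, Kcnh6 and Kcnh7 had intervals that included 1 as well, with log2 folds between −1.34 (Kcnh6) and 1.31 (Kcna7). The median log2 fold of the 23 genes was 0.14.

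Inward rectifiers hold the resting potential, and 8 of 15 genes had at least 20 counts. Kcnj2, the main pore of this current in the ventricle, had 462 counts in HO and 316 in WT (log2 fold 0.53, interval 0.32 to 0.74). Kcnj12, which contributes to the same current, lay on the other side of 1 with 128 and 169 counts (log2 fold −0.42, interval −0.76 to −0.08). Kcnj11, the pore of the ATP-sensitive channel of heart muscle, had 97 counts in HO and 132 in WT (log2 fold −0.46, interval −0.85 to −0.07), while Kcnj8, the ATP-sensitive pore of vascular muscle and pericytes, had 29 and 18 (log2 fold 0.67, interval −0.22 to 1.61). Kcnj5, a pore opened by acetylcholine in atrial cells, had the highest level of the class, at 11.1 RPKM in HO and 9.97 RPKM in WT, from 336 and 294 counts (log2 fold 0.18, interval −0.05 to 0.41). Its partner Kcnj3 had 7 and 5 counts only. Kcnj14, Kcnj15 and Kcnj6 had intervals that included 1.

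Among 2-pore channels, which carry background potassium current, Kcnk3 had the highest level, at 9.80 RPKM in HO and 12 RPKM in WT, from 191 and 229 counts (log2 fold −0.28, interval −0.56 to 0.01). Kcnk1 had 84 counts in HO and 44 in WT and lay above 1 (log2 fold 0.92, interval 0.37 to 1.48), and Kcnk2, Kcnk5 and Kcnk13 had intervals that included 1. Kcnma1, the pore of the large-conductance channel opened by calcium in smooth muscle and neurons, had 20 counts in HO and 5 in WT (log2 fold 1.98, interval 0.53 to 3.75), the highest fold of the 102 genes. It met the rule with folds centred by abundance (2.15, interval 0.69 to 3.92). Kcnmb1, the beta subunit of this channel in smooth muscle, had 48 and 28 counts (log2 fold 0.76, with an interval from 0.06 to 1.49), and Kcnmb4, its beta subunit in neurons, had 144 and 180 (log2 fold −0.34, interval −0.66 to −0.01). The 8 listed markers of smooth muscle had a median log2 fold of −0.02, from −0.50 (Smtn) to 0.40 (Des), and 4 of the 8 lay above 0. Their part in the values of Kcnma1 and Kcnmb1 was not tested. Kcnt2, a channel opened by sodium, lay below 1 with 17 and 37 counts (log2 fold −1.14, with an interval from −2.06 to −0.27), and the intervals of Kcnn1, Kcnn2, Kcnn3 and Kcnn4 included 1.

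Of the other subunits that assemble with potassium channels, Kcnab1, a cytoplasmic beta subunit of Kcna channels, had 52 counts in HO and 104 in WT (log2 fold −1.02, interval −1.52 to −0.52). The related Kcnab2 had 47 and 46 counts (log2 fold 0.02, interval −0.60 to 0.63). Kcne4, which inhibits several voltage-gated channels, had 155 and 118 counts (log2 fold 0.38, interval 0.02 to 0.74), on the opposite side of 1 from Kcne3. Kcne1, the partner of Kcnq1 in the slow delayed rectifier, had 26 counts in HO and 33 in WT (log2 fold −0.36, interval −1.16 to 0.43), and Kcne2 and Kcnip3 also had intervals that included 1. Kcnip2, a subunit of the transient outward current, had 1 count in each library, and a gene model that best matches it, LOC100911951, had 5 and 1.

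**Figure D5:**
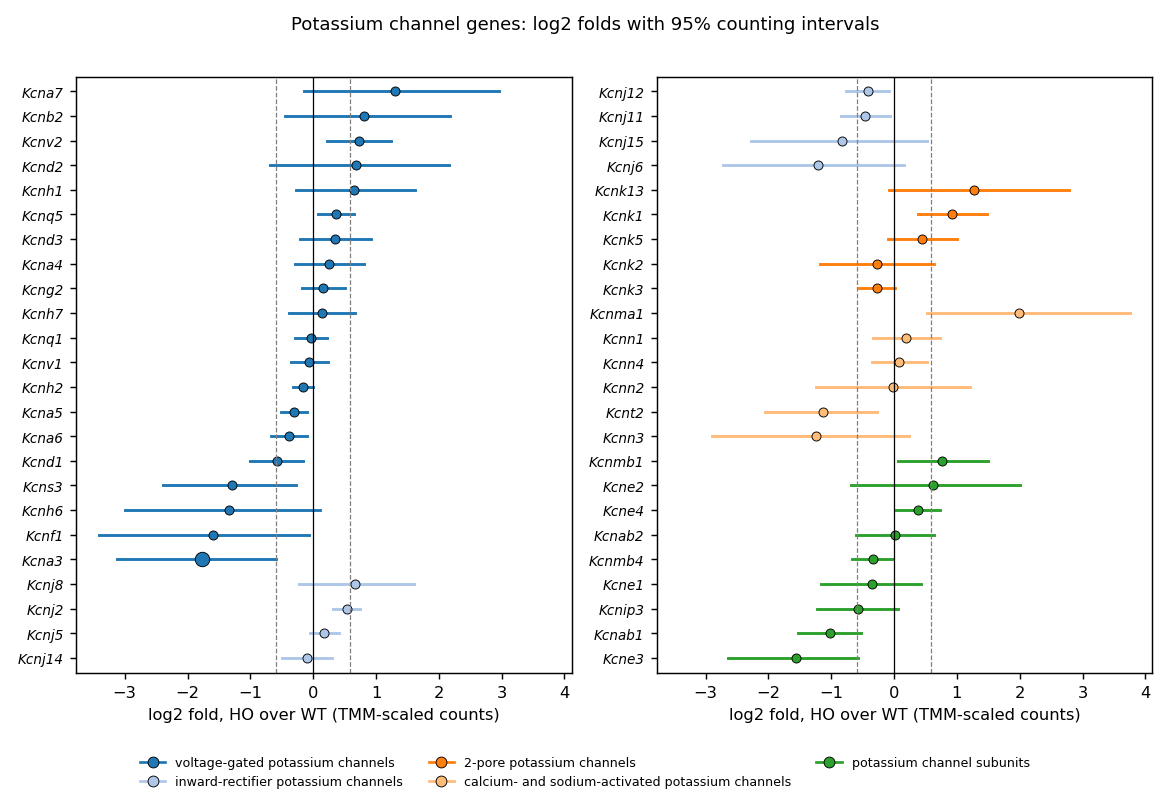
Log2 fold of HO over WT (points) with exact 95% counting intervals (lines) for 48 potassium channel and subunit genes with at least 20 counts, coloured by class. The solid vertical line marks equal levels, dashed lines mark 1.5-fold, and the large point marks the gene that met the rule, Kcna3 at −1.77. Kcnma1 has the highest fold, at 1.98 with an interval from 0.53 to 3.75.

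The other 84 genes of the families had too few reads for a comparison, with at most 14 counts in HO and 11 in WT. Among the 57 with 1 to 19 counts, 15 had no count in 1 of the libraries, where a count of 0 allows up to 3 counts. With no filter on low counts, 1 of the 57 met the rule, Kcnc1, a fast delayed rectifier of neurons, with 14 counts in HO and 2 in WT. Several genes known from adult conduction tissue or atria were in this group, among them Kcnj3, Kcnip2 and Gjd3, the last with 1 count in each library. The 27 genes without a count in either library include Gjd2, a connexin of neurons, Gjb1, a connexin of liver, and Trpv5 and Trpv6, calcium channels of kidney and gut.

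Other genes of the same pathways, which are no members, were listed for comparison. Of 24 further genes of calcium stores and their junctions, none met the rule, beside 1.95% of all genes tested. Beyond counting error, 9 of the 24 lay above 1 and 2 below 1 (20.3% and 17.0% of all genes tested), and the median log2 fold was 0.13. Jph2, which holds the store close to the membrane, had 1498 counts in HO and 1296 in WT (log2 fold 0.19, interval 0.09 to 0.30), while Sln, sarcolipin, an inhibitor of the calcium pump in atria, had 423 and 589 (log2 fold −0.49, interval −0.68 to −0.31). Of 15 genes of calcium and sodium transport across the cell membrane, 1 was lower (1.18% of all genes tested), and 3 lay above 1 and 7 below 1 beyond counting error, beside the same 20.3% and 17.0%. The sodium pump subunits Atp1b1 and Atp1b3 lay above 1 with log2 folds of 0.48 and 0.68, and the median of the 15 genes was −0.06. None of 16 calcium sensors and kinases met the rule (median 0.06), nor did any of 9 genes of mitochondrial calcium uptake (median 0.22). The same held for 13 pannexins and partners of junctions (median 0.06) and 23 other cation and chloride channels (median −0.10), beside 1.95% of all genes tested. Beyond counting error, 7 sensors and kinases lay above 1 and 2 below 1, and 4 and 0 genes of mitochondrial uptake. For junction partners these counts were 3 and 2, and for other channels 3 and 5, beside 20.3% and 17.0% of all genes tested. The 2 libraries also differed in markers of other cells of the OFT. All 8 epicardial markers had at least 20 counts, with a median log2 fold of −0.54, and 9 markers of mesenchyme had a median of −0.28. Markers of endothelium had a median of 0.10. The part of these markers in the channel values was not tested.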

How the data were processed

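Here 1 HO and 1 WT library, each from the OFTs of 10 embryos, underwent single-end sequencing on Ion Proton. Stage E13.5 is taken from the labels and the study, although both tables carry E11_5 in their column names. Reads were trimmed and mapped with MapSplice 2.1.8 to Rnor 6.0, and the authors deposited raw counts per gene. The authors also deposited RPKM values, which are these counts divided by gene length and total counts. How reads were assigned to genes, with which annotation and whether by strand, is not given in the sources used here, so reads of overlapping genes (14 of the 102 detailed members on GRCr8) cannot be told apart. Columns were matched to samples by genotype.

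Members were found by symbol, and 12 classes were set by gene family. The members, lists and tests were chosen with earlier results of these data known. Library sizes were scaled by TMM in edgeR 4.0.16 (R 4.3.3). The fitted models of edgeR and DESeq2 need replicates and were not run, nor was the EBSeq test of the study. Fold intervals are exact Clopper-Pearson intervals (95%) of the HO share of a gene's reads, and PCR copies are not independent molecules. Genes needed at least 20 counts over both libraries. The rule was tested on simulated data with known folds. Those data held counting error only, as the intervals assume, so the test does not cover variation between embryos or libraries. List medians set a library at 0 to 3 counts. Named members are those that met the rule or differed beyond counting error, the 3 of each class with the highest mean RPKM, and a list of cardiac genes, 68 in all, with other members by name and interval. Kcnc1, Gjd3 and other genes under 20 counts were chosen after their values were seen, as were the pairs of genes set against each other in the closing section. As an alternative, reads of gene models without a symbol were summed with the member they match best, and, chosen after seeing the data, also with Cacng8 or Ryr1 where only the description names it.

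Alternatives were DESeq2 1.42.0 size factors, total counts, upper-quartile factors, TMM leaving out mitochondrial and haemoglobin genes, centring of folds by gene length or abundance (lowess), other filters, 99% intervals and other thresholds. The DESeq2 size factors were 1 for HO and 1 for WT, so this setting left the counts unscaled. All 186 symbols were found in the RefSeq gene table of GRCr8, used for overlaps of genes. Other steps used Python 3.11.15, numpy 2.4.6, pandas 2.3.3, scipy 1.17.1, statsmodels 0.14.6 and matplotlib 3.10.9. Values of some single genes are not reported here, though counts and medians over lists include them.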

Additional observations from a re-analysis of the deposited data

How the results depend on the processing

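Trpm5 was called lower in HO under all settings run. The count of 2 lower members was 1 (Trpm5 alone) with DESeq2 size factors, with at least 100 counts, with 99% intervals or with a 2-fold threshold, and 4 with upper-quartile factors, which added Kcne3 and Scn3b. With the 1.5-fold or 2-fold interval rule no member was higher, except 1 with folds centred by abundance (Kcnma1) and 1 with no filter (Kcnc1). With at least 100 counts, 75 of all genes at that depth were higher and 110 lower. Of the 15426 genes with at least 20 counts, 73 were higher and 117 lower with 99% intervals, and 42 and 57 with a 2-fold threshold. Asking only that the interval lie wholly on 1 side of 1 gave 15 higher and 27 lower of 102 members (14.7% and 26.5%). For all 15426 genes this gave 3126 and 2624 (20.3% and 17.0%). The point fold past 1.5 with no interval gave 15 and 20 of 102 members, and 967 and 1158 of 15426 genes. Such point folds depend on depth, and the members had a median of 173.5 counts against 446 for all genes tested. The median log2 fold of the members ran from −0.09 to −0.02 over all settings. For the 68 named members, 529 of 544 alternative values kept their side of the threshold and stayed within the main interval. Many of these values could hardly change. Summing gene models without a symbol left members that have no such match as they were. Leaving out mitochondrial and haemoglobin genes gave an HO over WT library ratio of 1.01060, against 1.01059 with TMM. The sign differed in 5 of the 544 values, at genes within 0.07 of 0 (Cacna1c, Cacna1d, Itpr1 and Ryr2). That measure does not track whether an interval included 1, which changed for several genes. The intervals of Gja1 and Kcne4 included 1 with upper-quartile factors, and that of Kcnmb4 with DESeq2 size factors. Cacna1a had an interval that included 1 with folds centred by gene length. With total counts, the intervals of Gja5, Kcnh2 and Kcnk3 lay wholly below 1. No paired analysis was possible because each genotype had 1 library, and for the same reason no library could be left out. Depth limits the 38 members with 20 to 99 counts most, of which 3 had intervals within 2-fold in both directions.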

Other observations

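Ratios of counts between 2 genes within a library need no scaling of library sizes but do change with centring by gene length or abundance, and the pairs given here were chosen after the values were seen. They are values with counting intervals (95%, from the 4 counts on a log scale) and carry no test. The ratio of Pln to Atp2a2 counts, of the inhibitor to the pump of the calcium store, was 0.281 in HO and 0.361 in WT, and the HO ratio was 0.779 times the WT ratio (interval 0.735 to 0.825). Casq2 over Atp2a2 gave 0.704 times the WT ratio (interval 0.633 to 0.783) and Ryr2 over Atp2a2 gave 0.787 (interval 0.731 to 0.846). Slc8a1 over Atp2a2 gave 0.993 times the WT ratio (interval 0.951 to 1.04), an interval that includes 1. With folds centred by gene length, however, the log2 fold was 0.49 (interval 0.44 to 0.54) for Slc8a1 and 0.36 (interval 0.31 to 0.40) for Atp2a2, and these intervals do not overlap. Against Tnnt2, cardiac troponin T, Atp2a2 gave 1.12 times the WT ratio (interval 1.08 to 1.16), but against Actc1, cardiac actin, it gave 0.949 (interval 0.920 to 0.980), so the direction for Atp2a2 depends on the cardiomyocyte gene it is set against.

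Among calcium channel pores, the ratio of Cacna1g to Cacna1c, of a T-type to an L-type pore, was 1.40 in HO and 1.91 in WT, or 0.733 times the WT ratio (interval 0.659 to 0.815). Cacna1h over Cacna1c gave 0.797 times the WT ratio (interval 0.724 to 0.877). Cacna1d over Cacna1c, both L-type pores, gave 0.975 (interval 0.860 to 1.10). Among beta subunits, Cacnb3 over Cacnb2 gave 0.564 times the WT ratio (interval 0.442 to 0.719). Gja5 over Gja1 gave 0.751 (interval 0.610 to 0.924), whereas Gjc1 over Gja1 gave 0.996 (interval 0.877 to 1.13). Kcnj2 over Kcnh2 gave 1.61 times the WT ratio (interval 1.35 to 1.93). These values have no replicate check, and the part of the mix of cells in them was not tested.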
